A study of Homo sapiens with 5 samples.

Results

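The regions described here are SRSF9 peaks whose deposited log2 ratio lay below 0 in both libraries without ADAR2 and above 0 in both libraries with it. They are called regions turning positive. They were chosen from the deposited peak table, without the mitochondrial chromosome, by the signs of its 4 log2 ratios. This gave 852 rows, which fell on 831 distinct regions once rows of identical coordinates were averaged. They made up 22.99% (95% Wilson interval 21.6 to 24.4) of the 3615 regions found in both conditions, out of 80514 rows in the whole table. The opposite switch, above 0 without ADAR2 and below 0 with it, was made by 76 regions, 2.10% (1.68 to 2.62). A further 2528 shared regions were above 0 in all 4 libraries and 180 were below 0 in all 4. These 4 sets hold all 3615 regions, so in the deposited table every shared region had ratios of one sign within each condition.

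SRSF9 is a serine/arginine-rich protein. Proteins of this family bind short stretches of messenger RNA precursors, many of them in exons, and help decide which splice sites are used. ADAR2 is an enzyme of RNA editing that acts on double-stranded RNA and turns adenosine into inosine, which is read as guanosine when the RNA is translated or sequenced. The study's stated subject is how SRSF9 represses editing at ADAR2 targets, and the comparison asks where SRSF9 sits on RNA when ADAR2 is or is not co-expressed.

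The cells were HEK 293T, a human embryonic kidney line, grown in one medium throughout. One group overexpressed SRSF9 alone and the other overexpressed SRSF9 and ADAR2, with 2 eCLIP libraries each. In eCLIP, RNA is fragmented while bound to its protein, pulled down with it, recovered from a membrane and sequenced. A single input RNA library came from cells with both proteins, and it was not analysed here. Every group thus carried extra SRSF9, and none shows the protein at its natural level. The labels list an antibody against SRSF9, while their extraction protocol speaks of MYC-coupled beads. They do not say whether the libraries of a group came from separate cultures, so the test used below knows only how far these libraries lie apart, and that distance may be technical.

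Each value is a log2 ratio made by the authors, whose denominator the table does not name. Read depths are unknown, so no interval is given for a single ratio. The table carries no replicate names, and the libraries are called first and second in file order. Over the 3615 shared regions the median ratios were 0.96 and 0.20 with SRSF9 alone and 1.31 and 1.04 under ADAR2, so the second SRSF9-only library sat lowest. All positions are on hg19 and are counted from 1. An hg19 annotation and genome were not used here, so genes, exons and bound sequences were not analysed and regions are given by position.

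The choice of these regions fixes the sign of every value below, so their levels are a description and carry no test. In the first SRSF9-only library the ratios of the 831 regions ran from -2.45 to -0.001, with a median of -0.25 (quartiles -0.51 and -0.079). In the second they ran from -2.47 to -0.001, with a median of -0.66 (-0.98 and -0.40). In the first library with ADAR2 they ran from 0.022 to 4.65, with a median of 1.24 (0.83 and 1.72). In the second they ran from 0.0005 to 4.27, with a median of 0.88 (0.47 and 1.38). The values of the first SRSF9-only library therefore crowded just below 0, while most of those in the second lay further down. Without ADAR2 no value was below -2.47, and with it the values spread over more than 4 log2 units. The 2 conditions cannot overlap in these regions, since the rule parts them at 0.

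**Figure D1:**
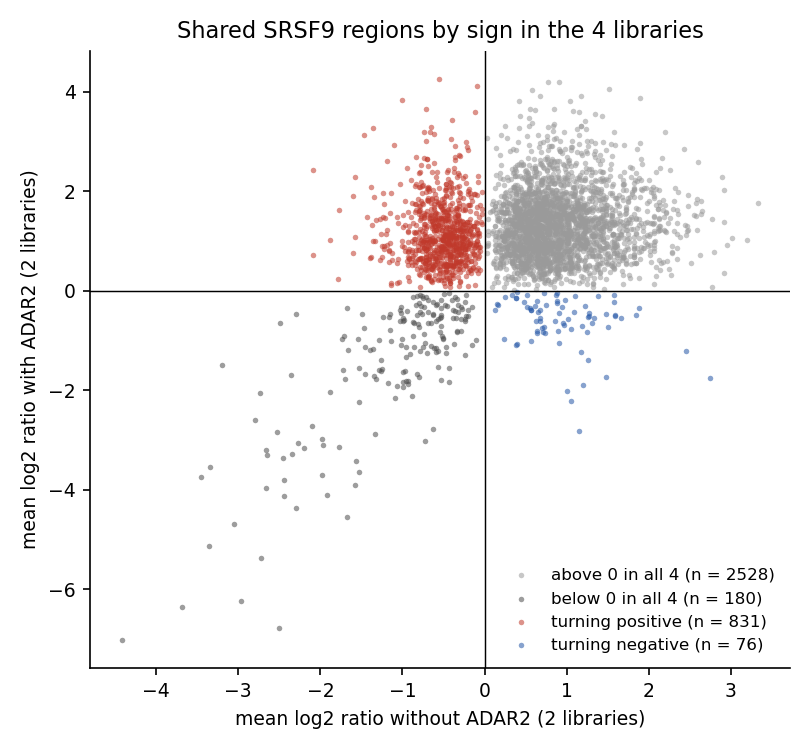
Mean log2 ratio of each shared region without ADAR2 (horizontal axis) and with ADAR2 (vertical axis), each point a region and each mean over 2 libraries. The 831 regions turning positive fill the upper left of the plot close to the vertical line at 0, and the 76 turning negative the lower right.

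With ADAR2 the regions turning positive lay on both sides of the median of peaks found only in that condition. Among them, 58.1% (54.7 to 61.4) exceeded 1.13 in the first library with ADAR2, the median of the 71920 nuclear peaks found only with ADAR2. In the second library 37.3% (34.1 to 40.6) exceeded the corresponding median of 1.06. The regions above 0 in all 4 libraries exceeded the same medians in 65.6% (63.8 to 67.5) and 52.0% (50.03 to 53.9) of cases. Both sets were chosen with ratios above 0, while the peaks found only with ADAR2 ran down to -10.22 and -9.55. The shares are therefore partly set by the choice and were not tested. In 303 regions turning positive, both ratios with ADAR2 were above 1. In 49 both were above 2 and in 5 both were above 3. On the low side, only 26 had both ratios without ADAR2 below -1 and 0 had both below -2.

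The mean difference, with minus without ADAR2, had a median of 1.57 on the log2 scale (quartiles 1.19 and 2.07, range 0.24 to 4.86). It was at least 1 in 707 regions, at least 2 in 235 and at least 3 in 44. The distance between the closest values of the 2 conditions was smaller, with a median of 1.07 (0.68 and 1.58), and was at least 1 in 446 regions. For the regions turning negative that distance had a median of 0.67 and the mean difference a median of -1.48. Over all 3615 shared regions limma, with Benjamini-Hochberg adjustment, called 674 higher with ADAR2, which is 18.6%, and 78 lower, which is 2.16%. In this fit every region had the same standard error of 0.59. A call thus rested on the size of the mean difference, whatever the spread between a region's own libraries. Of the 831 regions 451 were among those called higher, and 35 of the 76 turning negative were among those called lower. The rule used this same contrast, so nothing is read from these counts. With each library centred on its median over the shared regions, which moved the median difference of all of them from 0.63 to 0.030, limma called 458 higher (12.7%) and 390 lower (10.8%), and 325 of the 831 were among those higher.

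The number of calls was much smaller with 3 libraries. With the first SRSF9-only library left out, limma called 0 shared regions in either direction, while 1348 were higher and 55 lower before adjustment at 0.05. With the second left out it likewise called 0, against 690 and 357 before adjustment. The median difference of the 831 regions was 1.76 and 1.39 in these fits, against 1.57 with all 4 libraries. The standard error of a region ran from 0.42 to 1.13 in them, against 0.59 for every region with all 4. These fits thus weighed a region's own spread, which the fit with all 4 did not. With the first of the ADAR2 libraries left out the median difference of the 831 regions was 1.41, and with the second left out 1.79. Every region had the same standard error of 0.84 in those fits, so their calls cannot be set beside those without an SRSF9-only library.

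**Figure D2:**
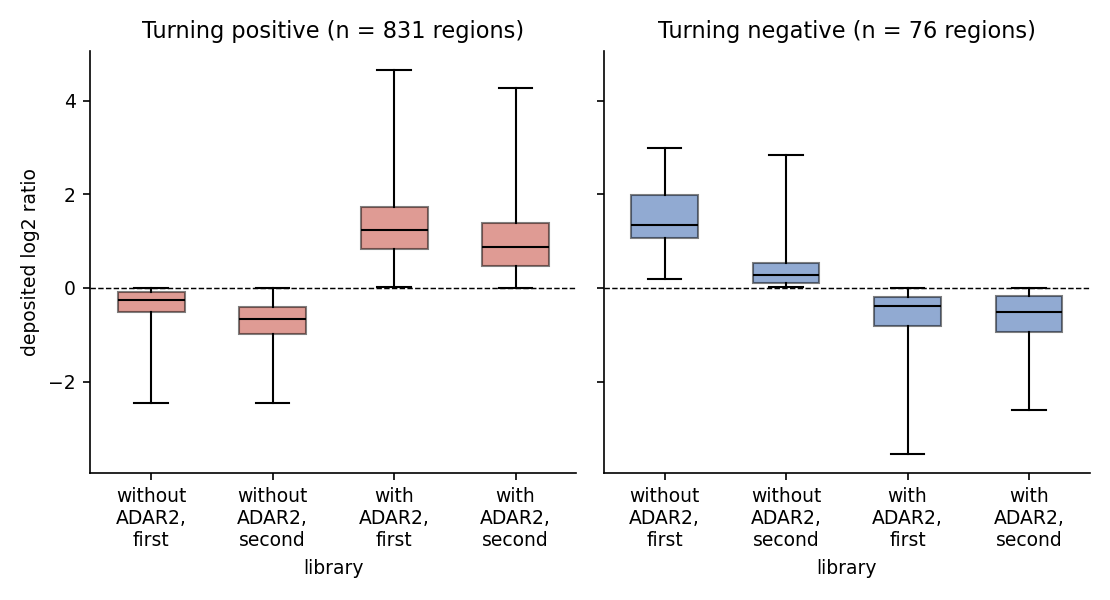
Deposited log2 ratios by library for regions turning positive (left) and turning negative (right). Boxes span the quartiles, the line is the median and whiskers reach the lowest and highest region; the first SRSF9-only library lies closest to 0 on the left, with a median of -0.25.

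Most regions turning positive crossed 0 by a small margin in at least one library. The value nearest to 0 came from the first SRSF9-only library in 526 of the 831 regions and from the second in 146. It came from the first library with ADAR2 in 40 and from the second in 119. In the first SRSF9-only library 417 regions, 50.2% (46.8 to 53.6), lay closer to 0 than 0.25. In the second 120 did so, and in the libraries with ADAR2 40 and 98. All 4 values were at least 0.1 from 0 in 525 regions, at least 0.25 in 315, at least 0.5 in 112 and at least 1 in 12. The regions turning negative were limited by other libraries: their nearest value was in the second SRSF9-only library in 34 of 76 and never in the first.

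The first SRSF9-only library held few distinct values in these regions. Rounded to 3 decimals, its 831 ratios took 128 distinct values, against 513 in the second SRSF9-only library and 476 and 411 in those with ADAR2. A ratio of -0.079 stood in 153 regions and -0.342 in 135. Together with -0.15 (64 regions) and -0.02 (55), these 4 values covered 407 regions, 49.0%. In regions above 0 in all 4 libraries the commonest ratio of that library was 0.658, in 268 of 2528. There too it held the fewest distinct values, 338 against 754 in the second SRSF9-only library and 824 and 724 in those with ADAR2. Many regions therefore turned from the same few values just under 0, and how far they lay below it cannot be ranked within such a group.

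**Figure D3:**
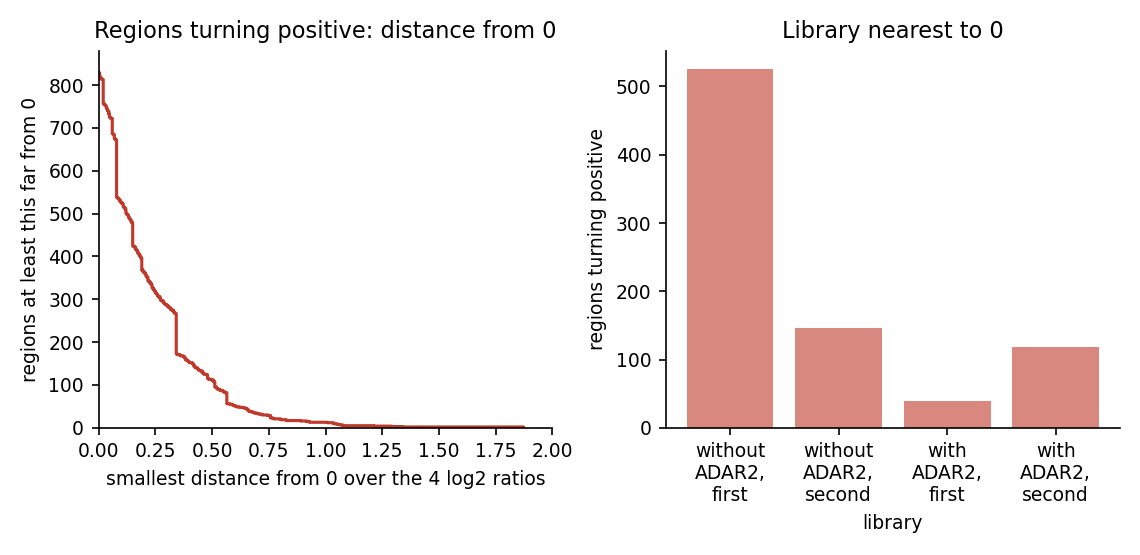
Left, number of regions turning positive (vertical axis) whose 4 log2 ratios all lie at least the given distance from 0 (horizontal axis); right, number of regions by the library whose ratio was nearest to 0. The curve falls in steps at repeated values and reaches 112 regions at 0.5, and 526 regions are limited by the first SRSF9-only library.

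Regions near the edge of the rule had at least one ratio within a few hundredths of 0. Just inside it, chr3:49449253-49449404 had SRSF9-only ratios of -0.44 and -1.70, and 0.32 and 0.0005 under ADAR2. On chromosome 5 a pair of regions, chr5:179149889-179149926 and chr5:179149959-179150021, had the same SRSF9-only values, -0.001 and -0.13, with 1.69 and 1.26 and with 1.18 and 1.16 under ADAR2. The region chr9:66458174-66458211 had -0.48 and -0.001 without ADAR2 against 2.69 and 1.94 with it, and chr11:125490785-125490843 had -0.079 and -0.001 against 1.39 and 1.38. Just outside it, chr17:25631814-25631832 had SRSF9-only ratios of 0.006 and 0.044, and 3.39 and 2.76 under ADAR2. The region chr19:572624-572702 had 0.030 and 0.021 against 0.77 and 1.03, and chr7:26232114-26232197 had 0.055 and 0.073 against 1.52 and 1.65. On chromosome 8, chr8:134274292-134274375 had 0.052 and 0.019 against 1.47 and 0.06. Also there, chr8:99057603-99057629 missed the rule from below, with -0.043 and -0.81 with SRSF9 alone and -0.068 and -0.008 under ADAR2. Of these 5 outside the rule, chr17:25631814-25631832 had a mean difference of 3.05 and chr7:26232114-26232197 one of 1.52. The others outside had 0.87, 0.73 and 0.39, and those inside had differences from 1.23 to 2.56.

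The 10 regions whose smallest distance from 0 was largest stood clear of it in every library. Farthest of all was chr16:81995690-81995745, with -2.30 and -1.87 with SRSF9 alone and 2.03 and 2.83 under ADAR2, means of -2.08 ± 0.30 and 2.43 ± 0.56 (SD, n = 2 each). Next came chr2:85843326-85843406, with -1.34 and -1.52 against 1.47 and 1.48. At chr17:16062151-16062185 the ratios were -1.78 and -1.77 with SRSF9 alone and 1.29 and 1.94 under ADAR2. At chr22:41488192-41488280 they were -1.34 and -1.21 against 1.44 and 1.43. In these the libraries of a condition lay far closer to each other than to those of the other condition. The pick by distance from 0 itself sets a wide gap between conditions, so this is a description and was not tested.

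The other 6 of the 10 had smaller margins. At chrX:135960072-135960133 the ratios were -1.34 and -1.08 against 1.54 and 1.38, and at chr10:7452890-7452939 they were -1.15 and -1.33 against 1.90 and 1.06. At chr3:42674096-42674171 they were -1.22 and -1.05 against 2.52 and 1.41, and at chr4:140222848-140222868, a region of 21 nt, -1.04 and -1.43 against 2.15 and 1.80. At chr11:89942905-89942952 they were -1.34 and -1.03 against 3.16 and 2.06. At chr12:112705039-112705097 they were -1.07 and -2.09 against 2.39 and 2.18. That region's neighbour, chr12:112704964-112705024, carried the same SRSF9-only values and had 1.12 and 1.03 with ADAR2, so the pair counts once for the condition without ADAR2. With each library centred on its median over the shared regions the mean differences of the 10 ranged from 2.07 to 3.92.

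Many of the regions with the highest ratios with ADAR2 were only just below 0 in the first SRSF9-only library. Of the 10 with the highest mean, 6 had -0.079 in the first SRSF9-only library. The highest was chr2:86350827-86350890, with -0.34 and -0.76 with SRSF9 alone and 4.65 and 3.87 under ADAR2. At chr20:61441051-61441110 the values were -0.079 and -1.94 against 3.93 and 3.76. A neighbouring region, chr20:61440939-61440993, had -0.079 and -0.15 against 4.32 and 2.87. At chr17:55038284-55038374 they were -0.079 and -1.34 against 3.77 and 3.52, and at chr17:4615835-4615887 -0.079 and -1.23 against 4.07 and 2.52. At chr10:93695443-93695459 they were -0.02 and -0.77 against 3.24 and 3.65, and at chr1:226254022-226254059 -0.22 and -1.25 against 3.61 and 2.76. At chr8:134308700-134308717 they were -0.079 and -1.24 against 3.53 and 2.87. The remaining 2 of the 10 were chr19:47634465-47634533, with a mean of 4.12 with ADAR2, and chr1:153930915-153930992, with 3.26.

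The 10 regions lowest without ADAR2 had means with ADAR2 from 0.23 to 3.13, and the median over all 831 was 1.05. The list above was picked for height with ADAR2, so the lists are not compared. The lowest mean without ADAR2 was at chr2:76672374-76672445, with -2.28 and -1.90, and its ratios with ADAR2 were 1.37 and 0.086. At chr14:90178890-90178988 the values were -1.63 and -2.14 against 1.41 and 0.61, and at chr1:149783619-149783654 they were -1.22 and -2.37 against 0.39 and 0.06. On chromosome 17, chr17:16118757-16118819 had -1.46 and -1.76 against 0.60 and 0.91. At chr11:93474488-93474643 the SRSF9-only libraries differed widely, with -2.45 and -0.76, and those with ADAR2 had 2.07 and 1.72. At chr6:76364963-76365000 the values were -0.93 and -2.02 against 3.88 and 2.38, the only one of these 10 with a mean above 3 with ADAR2. The other 4 of the 10, on chromosomes 12, 16 and 17, are among those described above. Pearson's r between a library without and a library with ADAR2 lay between -0.081 and 0.007 over the 831 regions, against 0.65 between the libraries with ADAR2 and 0.20 between those without. These are correlations across regions of the same libraries, within a range that the rule truncates.

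Within a condition the first library was usually the higher one. In 644 of the 831 regions the first SRSF9-only ratio exceeded the second, by a median of 0.34 over all 831 (quartiles 0.019 and 0.69). In 617 the first ratio with ADAR2 exceeded the second, by a median of 0.35 (-0.007 and 0.73). In the regions above 0 in all 4 libraries these medians were 0.84 and 0.24, so the SRSF9-only libraries lay closer together in the regions turning positive. The rule keeps both SRSF9-only values in the narrow range under 0.

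Wider shared regions were more often among those turning positive. Width took no part in the rule, but the difference between conditions did, and its median over all shared regions was larger in wider classes too, at 0.40, 0.48, 0.69, 0.84 and 0.92 from the narrowest to the widest. Of the shared regions up to 25 nt wide 18.1% (15.3 to 21.3) turned positive, of those from 26 to 50 nt 19.8% (17.6 to 22.1) and of those from 51 to 75 nt 23.6% (21.0 to 26.4). From 76 to 100 nt it was 27.6% (23.7 to 31.9), and among the 364 regions of 101 nt or more it was 34.9% (30.2 to 39.9). Regions turning negative were 3.01% (1.94 to 4.65) of the narrowest and 0.824% (0.281 to 2.39) of the widest. The median width was 57 nt for regions turning positive, with a 95% interval of 54 to 60 from the binomial order of the widths. It was 39.5 nt for those turning negative, 49 nt for those above 0 in all libraries and 50 nt over all shared regions. How the authors set the bounds of a shared region is not known here, regions are not replicates, and these shares were not tested.

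**Figure D4:**
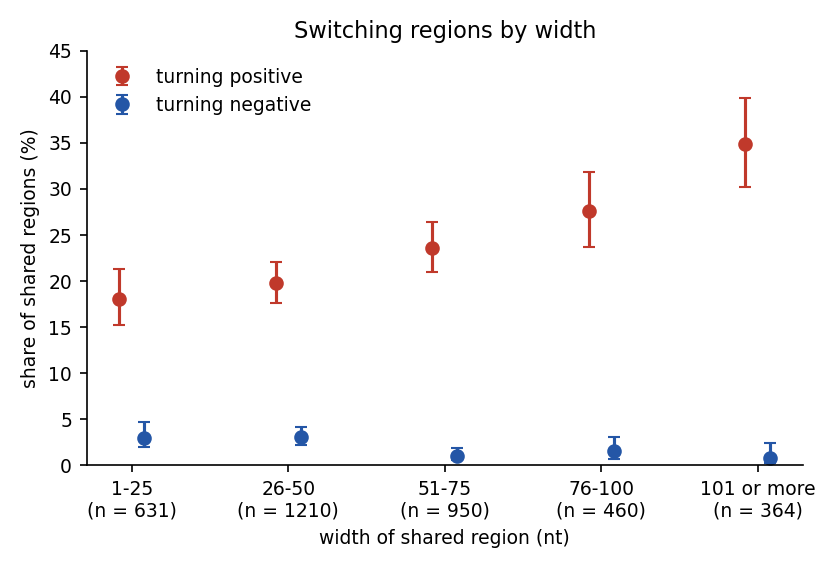
Share of shared regions (vertical axis, percent) that turned positive or negative with ADAR2, by width of the region in nt (horizontal axis). Points are shares and bars 95% Wilson intervals over regions; the share turning positive is 18.1% in the narrowest class and 34.9% in the widest.

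The 5 widest regions had moderate ratios. The widest, 317 nt at chr3:10183578-10183894, had SRSF9-only ratios of -0.44 and -0.64, and 1.46 and 0.73 under ADAR2. The next, 307 nt at chr5:132298981-132299287, had -1.08 and -0.50 against 0.93 and 0.038. The third, 281 nt at chr17:79478279-79478559, had -0.22 and -0.47 against 1.19 and 0.51. The remaining 2, chrX:23685673-23685899 and chr2:96874312-96874527, had mean differences of 1.14 and 1.94.

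The regions turning positive were spread over all autosomes and the X chromosome, with the highest shares on chromosomes 19 and 16. On chromosome 19 they were 72 of 188 shared regions, 38.3% (31.6 to 45.4), and on chromosome 16 they were 47 of 126, 37.3% (29.4 to 46.0). On chromosome 1 they were 89 of 469, 19.0% (15.7 to 22.8), and on chromosome 7 they were 24 of 148, 16.2% (11.1 to 22.996). Chromosome 16 held 0 regions turning negative and chromosome 19 held 2. Neighbouring regions are not independent, and these shares were not tested.

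Nearness to others of the same kind was not particular to the regions turning positive. Of the 831, 6.74% (5.23 to 8.65) had another within 100 nt, 16.7% (14.3 to 19.4) within 1 kb and 32.0% (28.9 to 35.3) within 10 kb. Regions above 0 in all 4 libraries had another of their own kind at these distances in 11.9%, 25.9% and 50.6% of cases, and those below 0 in all 4 in 18.3%, 28.9% and 39.4%. A shared region of any kind lay within 1 kb of 28.6% (25.7 to 31.8) of those turning positive and of 29.8% (28.0 to 31.6) of those above 0 in all 4. The sets differ in size, which bears on these shares, and they were not tested. Regions above 0 in all 4 libraries had one turning positive within 1 kb in 5.66% (4.82 to 6.63) of cases and within 10 kb in 20.6% (19.0 to 22.2). A region turning negative lay within 1 kb of 3 of the 831. Of the 831, 30 shared both SRSF9-only values with a shared region at most 61 nt away.

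The genome was also divided into stretches of 100 kb, and 626 of the 1814 that held a shared region held one turning positive. Of these, 474 held 1, 114 held 2, 27 held 3, 7 held 4 and 4 held 5. Of the 70 windows with a region turning negative, 17 also held one turning positive. In 48 windows with at least 2 shared regions, and in 10 with at least 3, all of them turned positive. The number of all windows with that many shared regions was not counted, so no share is given.

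The tightest group was on chromosome 19, where 4 regions lay within 639 nt, from chr19:8386540 to 8387178. They were the only shared regions in the window, which also held 12 peaks found only with ADAR2 and 0 found only without. Their means without ADAR2 were -0.73, -0.47, -1.12 and -0.93 in order of position, and with ADAR2 0.88, 1.29, 0.62 and 0.52. In all 4 the second library with ADAR2 was the higher, for example 0.034 and 1.01 at chr19:8387156-8387178. This is against the order of the libraries in most regions.

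On chromosome 16, the window from 2000001 to 2100000 held 5 shared regions and all 5 turned positive, beside 39 peaks only with ADAR2 and 4 only without. At chr16:2014329-2014366 the ratios were -0.57 and -0.40 against 1.35 and 1.44, and at chr16:2014450-2014487 they were -0.04 and -0.41 against 1.20 and 1.22. The smallest mean difference was at chr16:2009591-2009695, which had -0.079 and -0.51 against 0.33 and 0.03. The window's mean differences ran from 0.48 to 1.88. A second window on that chromosome, from 89800001 to 89900000, held 4, with chr16:89871745-89871804 at -0.61 and -0.63 against 3.53 and 2.78. The other 3 of that window had -0.079 in the first SRSF9-only library and mean differences from 1.34 to 1.36.

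On chromosome 5, the window from 179000001 to 179100000 held 5 turning positive among 17 shared regions, the other 12 being above 0 in every library. At chr5:179044991-179045061 the ratios were -1.97 and -0.72 against 2.03 and 1.73, and at chr5:179045231-179045301 they were -0.32 and -0.45 against 1.39 and 0.85. In this window regions of both kinds thus stood side by side. On chromosome 19, the window from 10700001 to 10800000 held 5 among 8 shared regions, with mean differences from 0.87 to 1.47. These 5 include 2 pairs with common SRSF9-only values, -0.005 and -0.18 for one pair and -0.57 and -0.78 for the other. On the X chromosome, the window from 73000001 to 73100000 held 5 turning positive, 3 turning negative and 19 others, and its 5 had mean differences from 0.74 to 1.53.

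Windows with 4 regions gave a similar range. On chromosome 19, the window from 34800001 to 34900000 held 4 with mean differences from 1.45 to 2.37, and 3 of them had -0.079 in the first SRSF9-only library. On chromosome 17 from 56000001 the differences ran from 1.33 to 2.15, and on chromosome 10 from 96300001 they ran from 1.06 to 1.57. On chromosome 1 from 23600001, where 2 of the 4 had common SRSF9-only values, they ran from 0.68 to 3.22, the largest at chr1:23652225-23652277 with -0.02 and -0.44 against 3.59 and 2.38.

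Peaks found in only 1 condition took no part in the rule, but they came from the same libraries. Some also carried a value in common with a nearby shared region. Within 1 kb, 67.3% (64.0 to 70.4) of the regions turning positive had a peak found only with ADAR2, against 62.8% (60.9 to 64.6) of those above 0 in all 4 libraries. A peak found only without ADAR2 lay within 1 kb of 19.4% (16.8 to 22.2) and 23.7% (22.0 to 25.4). The regions turning negative had 68.4% (57.3 to 77.8) and 26.3% (17.7 to 37.2), and those below 0 in all 4 libraries 73.3% (66.4 to 79.3) and 28.9% (22.8 to 35.9). Within 10 kb the shares for regions turning positive were 96.5% (95.03 to 97.6) and 59.0% (55.6 to 62.3), against 96.1% (95.3 to 96.8) and 58.7% (56.7 to 60.6) for those above 0 in all 4. These shares were not tested.

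Close to the regions turning positive, peaks found only without ADAR2 were mostly below 0 too, but many repeated a value of the region. Within 100 nt of the regions turning positive, 33 of 41 peaks found only without ADAR2 were below 0 in both libraries, 80.5% (66.0 to 89.8). Near regions above 0 in all libraries it was 7 of 168, 4.17% (2.03 to 8.35). Near those below 0 in all libraries it was 9 of 12, 75% (46.8 to 91.1), so a high share was not particular to the regions turning positive. Many of these neighbours had at least 1 value in common with the region itself, whose sign the choice of set had fixed. Leaving them out took away only neighbours of the region's own sign, which draws the shares together. Without them, it was 8 of 16 (95% interval 28.0 to 72.0%) near regions turning positive. Near those above 0 in all libraries it was 7 of 55, 12.7% (6.30 to 24.0), and near those below 0 in all libraries 4 of 7. Within 1 kb and again without common values, the shares were 28.8% (22.5 to 36.0), 25.8% (22.0 to 29.9) and 25% (14.2 to 40.2) in the same order. These intervals overlap widely.

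Peaks found only with ADAR2 gave close values around both kinds of region. Of the 1167 peaks found only with ADAR2 within 1 kb of the regions turning positive, 5.83% (4.62 to 7.32) were below 0 in both libraries, and their median mean ratio was 1.16. Near regions above 0 in all libraries the corresponding values were 6.08% (5.24 to 7.06) and 1.19. Around the regions turning negative 37 of 97 such peaks were below 0, 38.1% (29.1 to 48.1), and their median mean ratio was 0.51. Around those below 0 in all libraries it was 82 of 253, 32.4% (26.9 to 38.4), with a median of 0.63. Without common values these shares were 36.8% (27.8 to 46.9) and 26.3% (21.0 to 32.3). Within 10 kb, over all neighbours, they were 23.6% (19.9 to 27.7) and 22.5% (19.8 to 25.4). For those turning positive the share within 10 kb was 9.11% (8.32 to 9.97). Low values nearby were thus not particular to the regions turning negative. Peaks in one neighbourhood are not independent, and these shares were not tested.

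**Figure D5:**
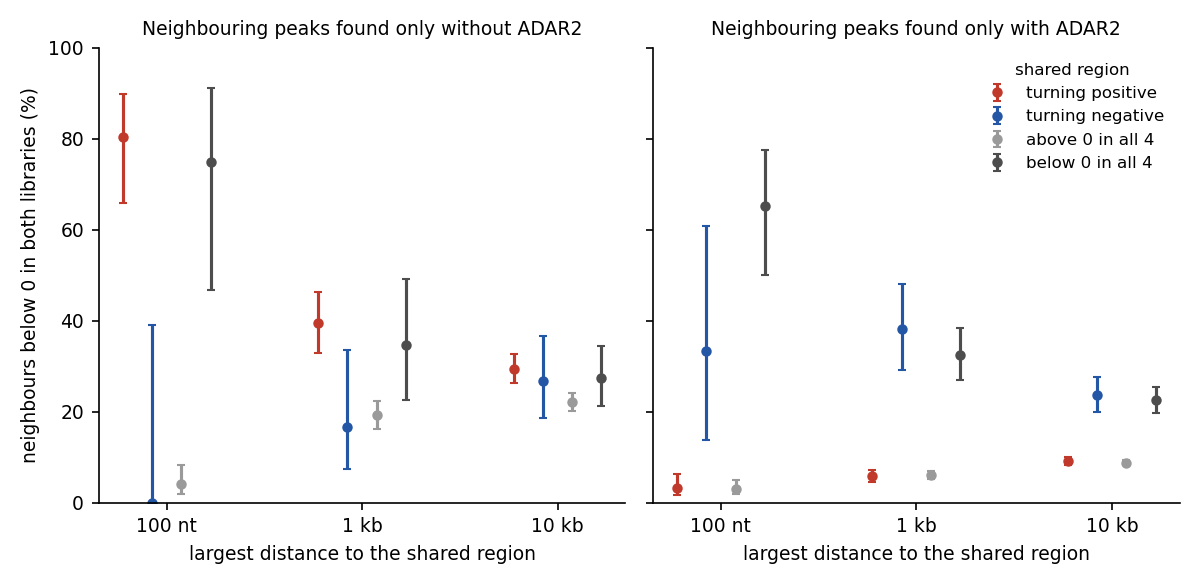
Share of neighbouring peaks below 0 in both libraries of their condition (vertical axis, percent) by largest distance to the shared region (horizontal axis), for peaks found only without ADAR2 (left) and only with ADAR2 (right). Points are shares over all neighbours, including those with a value in common with the region, with 95% Wilson intervals. Near regions turning positive the share is 80.5% within 100 nt on the left and stays below 10% on the right. Without neighbours that have a common value, the former is 8 of 16.

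The 10 regions turning negative that stood farthest from 0 make the contrast. At chr2:133012571-133012624 the ratios were 2.66 and 2.84 with SRSF9 alone and -2.17 and -1.33 under ADAR2, the only one of the 76 with every value at least 1 from 0. At chr18:21750479-21750516 they were 1.40 and 0.92 against -3.02 and -2.61, and at chr11:62622497-62622517 they were 1.88 and 0.51 against -1.95 and -1.82. At chr10:96363901-96363921 they were 2.98 and 1.92 against -1.74 and -0.70. That region lies in a 100 kb window where 4 others turned positive. At chr5:179156517-179156588 they were 1.44 and 0.49 against -0.57 and -0.83. The other 5 lay on chromosomes 4, 10, 15, 20 and X, with mean differences from -1.82 to -3.27.

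Both counts depended on the position of 0 in each library. After the same centring of each library, the first switch was made by 385 regions and the second by 391, so their ratio of 831 to 76 did not hold. Of the 831, 244 still turned positive, 346 were below the median in all 4 libraries and 241 were of mixed sign, while 0 turned negative. The other 141 of the 385 had been above 0 in all libraries. With only the second SRSF9-only library shifted up to the median of the first, 349 of the 831 still turned positive. Most of the 831 thus lost the switch under either change. The opposite switch was closed to a region below 0 in both SRSF9-only libraries, since neither change raised its value in the first of them. That none made it is therefore no result.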

How the data were processed

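SRSF9 binding was measured by eCLIP in HEK 293T cells. The peak table holds log2 ratios deposited by the authors, 1 value per library and peak, on hg19 per the submitters' processing notes. The sources used here do not name the aligner, the peak caller or the denominator of the ratios. Read depth is unknown. Rows whose class names both conditions were taken as shared. Rows meeting the sign rule were selected first and rows of identical coordinates then averaged. For 1 region, chr1:78444562-78444722, the 2 rows differed in their switch, and only the qualifying row gave its values in the description, while limma used the mean of both.

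Shares carry 95% Wilson intervals over regions, which cover counting error only. limma 3.58.1 in R 4.3.3 compared the conditions over the 3615 shared regions, with 2 libraries a group and Benjamini-Hochberg adjustment at 0.05. The code was also tried on simulated independent values with no offset between libraries. The deposited libraries had such offsets, so that trial says nothing on the calls made here. Neighbours were counted within 100, 1000 and 10000 nt in Python 3.11.15 with pandas 2.3.3. Named regions were the 10 farthest from 0 in all libraries, the 10 highest with and 10 lowest without ADAR2, the 10 turning negative farthest from 0, the 5 widest, the 5 on each side of the rule's edge, and the windows holding most. The regions and lists were chosen with earlier results of these data known.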

Additional observations from a re-analysis of the deposited data

How the results depend on the processing

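The number of regions turning positive, 831, was 385 with each library centred on its median over the shared regions. It was 315 where every value had to be at least 0.25 from 0 and 112 at 0.5. The 76 regions turning negative became 391, 22 and 9 under the same 3 settings. Chosen after seeing the data were a distance of 1, which left 12 turning positive, and a shift of the second SRSF9-only library to the median of the first, which left 349. The median difference of 1.57 was 0.98 after centring and lay between 1.40 and 1.79 when each library was left out in turn. Leaving out a library did not change the sign rule's count, because every shared region of the deposited table had ratios of one sign within each condition. The limma count of regions higher with ADAR2, 674, lay between 0 and 199 on leaving out each library (0 without either SRSF9-only library, 68 without the first with ADAR2), and that of regions lower, 78, between 0 and 16. The count lower was 390 after centring. A condition with 1 library left is assumed to vary like the other. The standard errors of these fits were unlike. They ran from 0.42 to 1.13 by region without an SRSF9-only library, and were 0.84 for every region without a library with ADAR2. The share with another region turning positive within 10 kb, 32.0%, was 16.7% at 1 kb and 50.1% at 100 kb. No paired analysis was possible because the value columns carry no replicate numbers. Shares in exons and with motifs were not run. Unknown depth limits every single ratio.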
